A study of Homo sapiens with 6 samples.

Results

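Expression of 10 genes of nucleic acid sensing in the cytosol and the endosome was described in 2 human breast cell lines, with and without decitabine (DAC). All 10 are called sensors below, although MAVS and TMEM173 encode adaptors. The genes were taken by symbol: DDX58, IFIH1, DHX58, TLR3, MAVS, TMEM173, MB21D1, AIM2, IFI16 and EIF2AK2. All 10 were found among the 23617 symbols of the MDA-MB-231 table, and 3 of them among the 1854 symbols of the HMLER table. MDA-MB-231 is a human breast cancer line, and HMLER was obtained by transforming human mammary cells in culture. DAC is a cytidine analog that is built into DNA and traps DNA methyltransferases. Cells were left untreated or received 10 µM DAC each day and were collected at 72 h. The 6 libraries comprise 2 of untreated and 2 of DAC-treated HMLER cells, and 1 of untreated and 1 of DAC-treated MDA-MB-231 cells, each made from pooled RNA extractions of one line. One label gives the untreated MDA-MB-231 library another line number, and its title, which reads MDA_MB_231, was used.

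Cells read foreign or misplaced nucleic acids with a small set of receptors. RIG-I (encoded by DDX58) and MDA5 (IFIH1) are RNA helicases that bind viral or other double-stranded RNA and signal through MAVS on mitochondria. LGP2 (DHX58) is a related helicase without the signalling domains, and it modulates the other two. TLR3 binds double-stranded RNA in endosomes, and PKR (EIF2AK2) is a kinase that double-stranded RNA activates and that slows translation. On the DNA side, cGAS (MB21D1) makes a cyclic dinucleotide that activates STING (TMEM173), while IFI16 and AIM2 belong to the HIN-200 family and AIM2 starts an inflammasome. Most of these genes are themselves raised by interferon, and DNA methyltransferase inhibitors are known to induce RNA from endogenous repeats that such receptors can bind.

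Levels are FPKM, fragment numbers scaled to transcript length and to the size of the library. The HMLER table holds only transcripts that were more than 2-fold higher after DAC, and none of them was under 1 FPKM after DAC. A gene that rose more than 2-fold but stayed under 1 FPKM may therefore be missing from it. Both libraries of a condition were merged into 1 value. A gene missing from the table has no HMLER value here, and the spread between HMLER libraries is not known. MDA-MB-231 has 1 library per condition, so no difference in it has a replicate check, and no p-value is given. In its place stand the lower and upper bounds deposited with each FPKM value, and the read counts that could be recovered from the values. The low FPKM values of both MDA-MB-231 libraries lay on a grid of whole reads: 100% of 1012 values in the untreated and 100% of 1148 in the DAC library were within 0.1 of a whole read, where chance gives 20%. One read was worth 1.01 times as much FPKM in the DAC library as in the untreated one. Intervals on reads are exact 95% intervals and cover counting error only. The 11057 symbols that reached 1 FPKM in both libraries had a median DAC/untreated ratio of 0.908 (-0.14 on the log2 scale). Of the mesenchymal markers, VIM was at 3066 FPKM untreated and 1134 FPKM after DAC, AXL at 243.9 and 84.5 FPKM, and CDH2 at 0.0902 and 1.06 FPKM. Of 8 luminal or epithelial markers, KRT18 (170.7 and 160.9 FPKM), ERBB2 (10.1 and 10.7 FPKM) and EPCAM (7.90 and 9.78 FPKM) were above 1 FPKM, and CDH1, ESR1, PGR, KRT5 and KRT14 were at 0 to 0.179 FPKM. All 7 blood cell markers stayed under 1 FPKM in both libraries, with a summed level of 0.204 FPKM untreated and 0.978 FPKM after DAC. In bulk RNA, fewer cells with a transcript and less transcript per cell cannot be told apart.

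The 10 sensors fell into a high and a low group in MDA-MB-231. In untreated cells the order of levels was MB21D1, TMEM173, IFI16, DDX58, MAVS, EIF2AK2, IFIH1, DHX58, TLR3 and AIM2. The first 6 lay between 13.0 and 25.9 FPKM, and the last 4 between 0 and 0.283 FPKM. The bounds of each gene overlapped those of the next gene in the order, except between EIF2AK2 and IFIH1. After DAC the same 6 genes were at 8.97 to 39.7 FPKM and the same 4 at 0.0250 to 1.76 FPKM, again with EIF2AK2 and IFIH1 as the only neighbours whose bounds were apart. The plot of levels with their bounds shows both groups. For the 6 abundant sensors the DAC/untreated ratio stayed between 0.689 and 1.70, and for the 4 scarce ones it ranged from 0.377 to 10.6, with AIM2 listed at 0 in untreated cells.

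**Figure D1:**
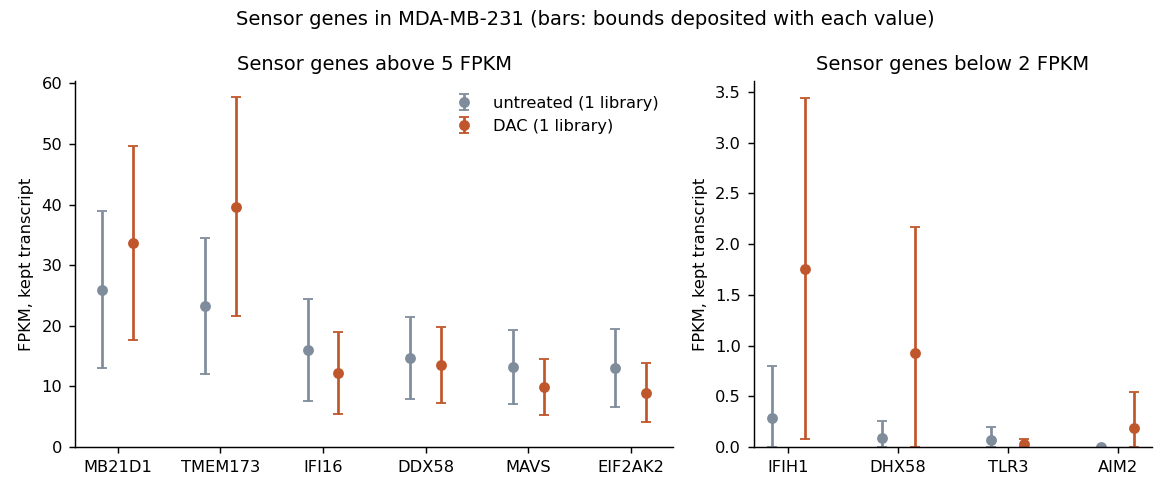
FPKM of the 10 sensor genes in untreated (grey) and DAC-treated (orange) MDA-MB-231 cells, 1 library each. Points are the deposited FPKM of the transcript kept for each gene, and bars are the bounds deposited with it. The left panel holds 6 genes at 8.97 to 39.7 FPKM and the right panel 4 genes at 0 to 1.76 FPKM. The bounds of the 2 libraries overlap for every gene.

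IFIH1 was the sensor that was more than 2-fold higher after DAC in both lines. So were 471 of all 12396 symbols that reached 1 FPKM in either MDA-MB-231 library. IFIH1 reached 1 FPKM only in the DAC library. Of all symbols with a mean of 0.01 to 2 FPKM over both libraries, where IFIH1 lay, 57.6% had a ratio above 2. In MDA-MB-231, IFIH1 (hg19, chromosome 2, 163123589 to 163175218) was at 0.283 FPKM untreated (bounds 0 to 0.801) and at 1.76 FPKM after DAC (bounds 0.0804 to 3.44). The DAC library was the higher one, and the deposited bounds of the libraries overlapped. These values correspond to 41 reads (29.4 to 55.6) and 253 reads (222.8 to 286.2), whose intervals were apart. The ratio was 6.21, with a counting interval of 4.45 to 8.86. In HMLER the authors' merged values for IFIH1 were 1.86 FPKM untreated and 4.47 FPKM after DAC, a ratio of 2.40. Of the symbols in the HMLER table, 78.8% had a larger ratio than that, so IFIH1 stood in the lower part of that list.

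The promoter window of IFIH1, shown because it is the gene higher in both lines, was taken from RefSeq (GRCh38.p14, chr2:162318635-162318934, minus strand). It runs from 250 bases before to 50 bases after the annotated start. Capitals mark the core of the interferon-stimulated response element, GAAANNGAAA on either strand, the element through which interferon-activated factors bind many antiviral genes.

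IFIH1: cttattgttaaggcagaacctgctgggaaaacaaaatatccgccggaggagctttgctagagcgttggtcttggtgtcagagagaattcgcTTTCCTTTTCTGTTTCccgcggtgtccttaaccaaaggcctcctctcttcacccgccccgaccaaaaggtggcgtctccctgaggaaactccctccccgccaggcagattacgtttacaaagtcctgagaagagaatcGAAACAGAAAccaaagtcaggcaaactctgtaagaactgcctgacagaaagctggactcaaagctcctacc

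This window held 3 matches, at positions -159, -153 and -21 from the annotated start. The first 2 lie on the opposite strand and share bases.

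DDX58, the gene of RIG-I, had unlike ratios in HMLER and MDA-MB-231, a difference that could not be tested with 1 value per condition. In HMLER the merged values were 3.08 FPKM untreated and 12.7 FPKM after DAC, a ratio of 4.10, the largest of the 3 sensors listed there. In MDA-MB-231, DDX58 (chromosome 9, 32455300 to 32526322) was at 14.7 FPKM untreated (bounds 7.89 to 21.5) and 13.5 FPKM after DAC (bounds 7.22 to 19.8). The libraries were close and their bounds overlapped over most of their length. The ratio was 0.922 from 2847 and 2607 reads, with a counting interval of 0.874 to 0.972, and it was 1.01 once divided by 0.908, the median ratio of the symbols that reached 1 FPKM in both libraries. The window of DDX58 (RefSeq symbol RIGI, GRCh38.p14, chr9:32526147-32526446, minus strand) is printed for comparison with IFIH1. It held no match to GAAANNGAAA. Capitals mark a related spelling, GGAANNGAAA, at position -204, which was searched for after the windows had been seen.

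DDX58: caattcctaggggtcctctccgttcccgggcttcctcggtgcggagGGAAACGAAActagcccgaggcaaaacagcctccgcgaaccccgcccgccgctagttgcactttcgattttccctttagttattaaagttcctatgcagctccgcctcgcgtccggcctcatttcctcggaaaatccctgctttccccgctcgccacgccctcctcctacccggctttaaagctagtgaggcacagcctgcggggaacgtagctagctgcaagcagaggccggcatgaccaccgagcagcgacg

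DHX58, the gene of LGP2, was the helicase with the largest ratio in MDA-MB-231. It was at 0.0875 FPKM untreated (bounds 0 to 0.260) and 0.929 FPKM after DAC (bounds 0 to 2.17), just under the 1 FPKM that a gene had to reach in at least 1 library to be counted. The values correspond to 9 reads (4.12 to 17.1) in the untreated and 95 reads (76.9 to 116.1) in the DAC library, so the DAC library was the higher one beyond counting error while the deposited bounds overlapped. The ratio was 10.6, with a counting interval of 5.37 to 23.9. DHX58 (chromosome 17, 40253422 to 40264751) was not in the HMLER table.

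The remaining RNA sensors and their adaptor were not above 2-fold in MDA-MB-231. MAVS (chromosome 20, 3827446 to 3856770), the adaptor of RIG-I and MDA5, was at 13.2 FPKM (bounds 7.13 to 19.3) and 9.87 FPKM (bounds 5.25 to 14.5), a ratio of 0.746. The libraries overlapped in their bounds, and with the 3 MAVS transcripts summed the ratio was 0.737. EIF2AK2 (chromosome 2, 37332284 to 37384190), the gene of PKR, was at 13.0 FPKM (bounds 6.52 to 19.5) and 8.97 FPKM (bounds 4.09 to 13.9), a ratio of 0.689. Its second transcript, NM_002759, was at 1.46 FPKM untreated and 1.55 FPKM after DAC, and the sum of the 3 transcripts gave 0.726. MAVS and EIF2AK2 were thus lower in the DAC library, by less than 2-fold and with overlapping bounds. Divided by the median ratio of 0.908, as for DDX58, their ratios were 0.822 and 0.759. TLR3 (chromosome 4, 186990309 to 187006252) was at 0.0662 FPKM untreated and 0.0250 FPKM after DAC. These are 8 reads (3.45 to 15.8) and 3 reads (0.619 to 8.77), a ratio of 0.377 with a counting interval of 0.0645 to 1.57. No difference in TLR3 was detectable at this depth.

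**Figure D2:**
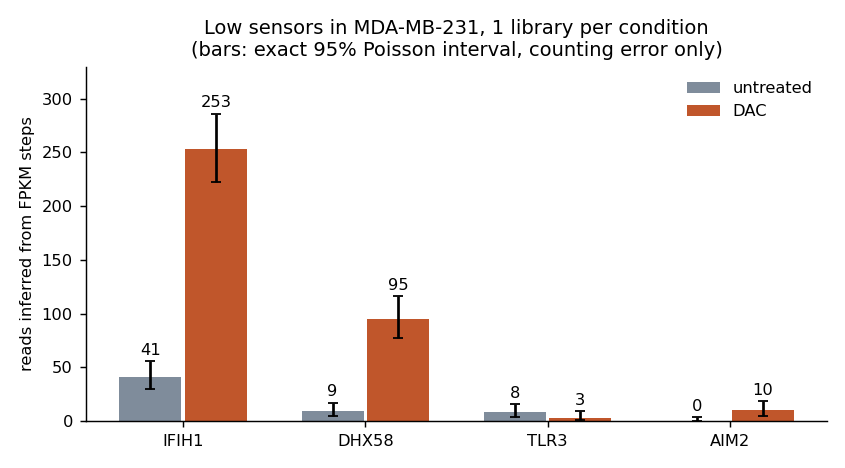
Reads recovered from the FPKM values of the 4 scarce sensors in MDA-MB-231, for untreated (grey) and DAC-treated (orange) cells, 1 library each. Black bars are exact 95% Poisson intervals, which cover counting error only. IFIH1 goes from 41 to 253 reads and DHX58 from 9 to 95, while TLR3 has 8 and 3 and AIM2 0 and 10.

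On the DNA side, the genes of cGAS and of its adaptor STING had the highest values among the sensors in MDA-MB-231. In untreated cells their bounds overlapped those of IFI16. TMEM173 (chromosome 5, 138855113 to 138862343), the gene of STING, was at 23.3 FPKM untreated (bounds 12.0 to 34.5) and 39.7 FPKM after DAC (bounds 21.6 to 57.7). The DAC library was the higher one, with overlapping bounds. The ratio was 1.70 (counting interval 1.61 to 1.80, from 1955 and 3312 reads), and a larger one was found for 14.2% of the 12396 symbols that reached 1 FPKM in either library. MB21D1 (chromosome 6, 74134856 to 74162043), the gene of cGAS, was at 25.9 FPKM (bounds 13.0 to 38.9) and 33.6 FPKM (bounds 17.6 to 49.7), a ratio of 1.30 with a counting interval of 1.22 to 1.38. Divided by the median ratio of 0.908, the ratios were 1.88 for TMEM173 and 1.43 for MB21D1. In HMLER, MB21D1 was listed with 4.24 FPKM untreated and 13.2 FPKM after DAC, a ratio of 3.11. TMEM173 was not in the HMLER table.

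IFI16 and AIM2 lie side by side on chromosome 1 and differed in level by far more than their bounds. IFI16 (158979682 to 159024945) was at 16.0 FPKM untreated (bounds 7.55 to 24.4) and 12.1 FPKM after DAC (bounds 5.40 to 18.9). Its ratio was 0.760, with overlapping bounds, or 0.837 once divided by the median ratio of 0.908. Its other transcript gave 0.801. AIM2 (159032275 to 159046647) was listed at 0 FPKM untreated and at 0.184 FPKM after DAC (bounds 0 to 0.541), which is 0 reads (0 to 3.69) and 10 reads (4.80 to 18.4). The lower limit of the counting interval of the ratio was 2.26, taking the listed 0 as 0 reads.

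Counted as a group, the sensors of MDA-MB-231 were near the background of all symbols. Of the 10 genes, 7 reached 1 FPKM in at least 1 library; DHX58, TLR3 and AIM2 did not. Of these 7, IFIH1, which reached 1 FPKM only in the DAC library, was called higher, meaning a DAC/untreated ratio above 2, against 11.5% of all symbols that passed the same filter. None was called lower (ratio below 0.5), where 5.86% of all symbols were. The median log2 change of the 7, with 1 FPKM added to each value, was -0.11, beside -0.09 for all 12396 symbols. The 4 scarce sensors sit in a range of expression where higher values after DAC were common: of 7044 symbols with a mean of 0.01 to 2 FPKM over both libraries, a range chosen after the values were seen, 57.6% had a ratio above 2 and 7.16% a ratio below 0.5. IFIH1, DHX58 and AIM2 belonged to the first of these shares and TLR3 to the second.

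In HMLER, 3 of the 10 sensors were listed as higher, DDX58, IFIH1 and MB21D1, where 7.85% of all symbols of the MDA-MB-231 table were. Counted over genes that reached 1 FPKM in either MDA-MB-231 library, it was 3 of 7 sensors beside 10.9% of all symbols. The lines were scaled separately, so levels across them are set side by side and not tested. Untreated MDA-MB-231 cells had 4.76 times the DDX58 value and 6.12 times the MB21D1 value of untreated HMLER cells, and 0.152 times the IFIH1 value. After DAC these ratios of MDA-MB-231 over HMLER were 1.07 for DDX58, 2.55 for MB21D1 and 0.394 for IFIH1. For each of the 3 genes the ratio between the lines was nearer 1 after DAC than before. For DDX58 and MB21D1 the listed change in HMLER started from the lower level. The IFIH1 values themselves lay further apart after DAC, at 1.76 FPKM in MDA-MB-231 and 4.47 FPKM in HMLER, against 0.283 and 1.86 FPKM untreated. A gene enters the HMLER table only with a ratio above 2, so the MDA-MB-231 over HMLER ratio of a listed gene is smaller after DAC unless the gene was also more than 2-fold higher in MDA-MB-231.

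**Figure D3:**
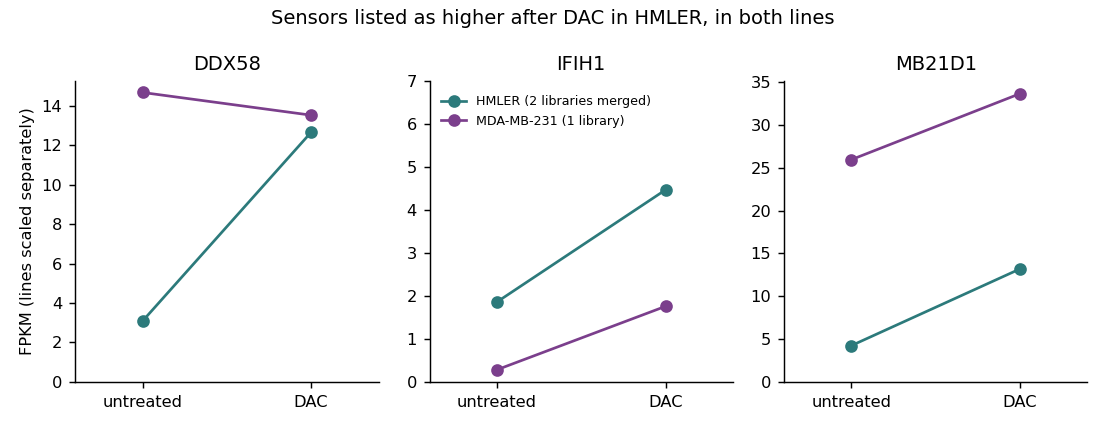
FPKM of the 3 sensors listed as higher in HMLER, untreated and after DAC, in HMLER (green, 1 value per condition merged over 2 libraries) and MDA-MB-231 (purple, 1 library per condition). The lines were scaled separately. DDX58 goes from 3.08 to 12.7 FPKM in HMLER and from 14.7 to 13.5 FPKM in MDA-MB-231, IFIH1 is higher after DAC in both, and MB21D1 goes from 4.24 to 13.2 and from 25.9 to 33.6 FPKM.

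A further 84 gene names of the pathway were grouped by role, of which 81 were in the MDA-MB-231 table and 61 passed the 1 FPKM filter. The other 3 are older names of the lambda interferon genes, which are counted under their current names. Of the 61, 11 were higher and 6 lower after DAC, beside the 11.5% and 5.86% of all symbols, and no gene in either group had bounds that were apart. With DAC values divided by that median ratio of 0.908, 12 were higher and 4 lower. Of the 81, 19 were listed as higher in HMLER, beside 7.85% of all symbols, and of the 61 that passed, 16 were, beside 10.9%.

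Of 18 output names, 15 were in the MDA-MB-231 table and 8 passed the filter. Of these 8, 6 were higher and 1 lower, beside 11.5% and 5.86% of all symbols, and their median log2 change was 1.12. The output list was chosen with earlier results of these data known, so these shares are a description and not a test. The 6 were IFIT1, IFIT2, IFIT3, ISG15, IL1B and ATF3, and all of them were also listed in HMLER, as were 471 of all 1428 symbols higher in MDA-MB-231. In HMLER 8 outputs were listed, beside 7.85% of all symbols. Among them, PPP1R15A had ratios of 4.05 in HMLER and 1.13 in MDA-MB-231. CCL5 had a ratio of 2.99 in HMLER, and 0 and 2 reads in MDA-MB-231. IL1B and, by its kept transcript, ATF3 passed the filter only through the DAC library. With 1 FPKM required in both libraries, IFIT1, IFIT2, IFIT3 and ISG15 were left as higher. The lower gene was IL18, with a ratio of 0.0756, which was 0.664 and not past the threshold with its transcripts summed. ISG15, a ubiquitin-like protein that interferon induces, was at 71.4 FPKM untreated (bounds 33.9 to 108.9) and 187.3 FPKM after DAC (bounds 102.2 to 272.5). In HMLER it was at 20.04 and 224.3 FPKM. IFIT2, whose product binds viral RNA, was at 3.69 and 9.78 FPKM in MDA-MB-231 and at 2.10 and 13.9 FPKM in HMLER. IFIT1 had a ratio of 2.60 in MDA-MB-231 and 5.36 in HMLER. For IFIT3 the ratio in MDA-MB-231 was 2.36, and it was 1.95, under the threshold, with its transcripts summed. The stress factor ATF3 had ratios of 5.03 and 10.6, and the cytokine gene IL1B 2.65 and 7.61. With its 6 transcripts summed, ATF3 was at 2.63 and 8.04 FPKM in MDA-MB-231, a ratio of 3.06. The interferon genes IFNB1, IFNL1, IFNL2 and IFNL3 and the chemokine gene CXCL10 were listed at 0 in both MDA-MB-231 libraries and were not in the HMLER table. A listed 0 need not mean that a gene had no reads: SKIV2L, an RNA helicase that most cells use, was also listed at 0 in both libraries for all 6 of its transcripts.

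Among 20 adaptors, kinases and transcription factors, 19 passed the filter, 3 were higher and 2 lower, near the 11.5% and 5.86% of all symbols. IRF7, which drives type I interferon genes, had values of 1.19 FPKM (bounds 0 to 3.38) and 6.92 FPKM (bounds 0.949 to 12.9) in the MDA-MB-231 libraries. These are of its kept transcript, and its 3 transcripts summed were at 2.67 and 19.1 FPKM, a ratio of 7.15. Another IRF7 transcript was at 2.02 and 8.97 FPKM in HMLER. IRF3, its partner that the sensors activate first, was at 23.2 and 57.2 FPKM in MDA-MB-231, with wide bounds (2.64 to 43.9 and 14.1 to 100.3). Summed over its 9 transcripts, IRF3 had a ratio of 2.19; its locus overlaps that of BCL2L12, and reads without strand cannot be told apart there. In HMLER a different IRF3 transcript was listed, at 2.76 and 13.2 FPKM. PYCARD, the adaptor that AIM2 recruits, was at 0.0458 FPKM untreated and 2.80 FPKM after DAC, summed over its 2 transcripts, which is 1 and 65 reads, and it passed the filter only through the DAC library. IRAK1 and IRAK4 were lower by the kept transcript, with ratios of 0.498 and 0.330, and with transcripts summed the ratios were 0.598 and 0.587, which are not past the threshold. The kinase TBK1, which the adaptors share, was at 18.3 FPKM untreated and 16.8 FPKM after DAC.

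Of 20 other sensors, 11 passed the filter, of which 1 was higher and 2 were lower, beside 11.5% and 5.86% of all symbols. In HMLER 6 of the 20 were listed, beside 7.85%. The gene higher in both lines was OASL, a relative of the RNA-sensing OAS enzymes, at 1.07 and 4.58 FPKM in MDA-MB-231 and 5.09 and 17.5 FPKM in HMLER. OAS1 and OAS2 were listed in HMLER with ratios of 2.09 and 7.87, and other transcripts of theirs, the ones kept in MDA-MB-231, stayed under 0.1 FPKM there. With transcripts summed, OAS1 had 5 reads in each MDA-MB-231 library. OAS2 summed had 1 read untreated and 24 after DAC, or 0.00703 and 0.206 FPKM. DDX60, a helicase described as an aid to RIG-I, had a ratio of 3.90 in HMLER and 1.95 in MDA-MB-231, just under the threshold. DDX1 was lower, at 104.5 and 50.7 FPKM, and so was LRRFIP1, with a ratio of 0.416 by its kept transcript and 0.498 summed.

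Of 9 cofactors, all passed the filter and none was called, while ZC3HAV1 and PQBP1 were listed in HMLER. Of 17 nucleases, editors and inhibitors, 14 passed, with RNF125 higher and PCBP2 lower, near the shares of all symbols. RNF125, a ubiquitin ligase that acts on RIG-I, was at 0.487 and 1.22 FPKM and passed through the DAC library alone. The kept transcript of PCBP2 had a ratio of 0.145, and its 7 transcripts summed gave 0.558, not past the threshold. The locus of PCBP2 overlaps that of MAP3K12. CYLD was listed in HMLER with a ratio of 7.54 and had 1.66 in MDA-MB-231, or 1.12 with its transcripts summed. SAMHD1 and TREX1, which limit nucleic acids in the cell, had ratios of 1.75 and 1.03 in MDA-MB-231.

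**Figure D4:**
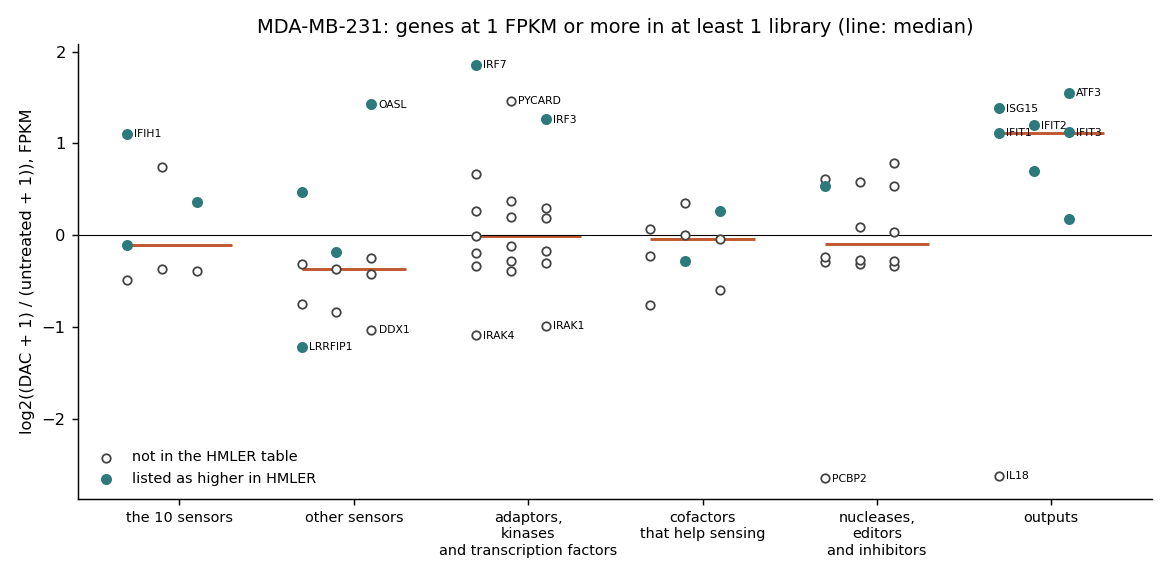
Log2 change after DAC in MDA-MB-231, computed from FPKM with 1 added to each value, for the sensors and the other pathway genes at 1 FPKM or more in at least 1 library. Filled points are genes listed as higher in HMLER, open points are not in that table, and the orange line is the median of each group. The outputs have a median of 1.12 and the 10 sensors, of which 7 are plotted, one of -0.11. The gene lists were chosen with earlier results of these data known.

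The promoters of the sensors were of unlike kinds. Windows were matched for 7 of the 10 genes in RefSeq (GRCh38.p14), with 2 windows for IFI16; DHX58, MB21D1 and TMEM173 were not among them. CG dinucleotides, the sites at which DNA is methylated, numbered 34 in the window of MAVS, 30 in that of EIF2AK2 and 27 in that of DDX58, above the median of 14 over all 35116 windows. IFIH1 held 12 (observed over expected 0.630), TLR3 held 5, AIM2 held 2 and the windows of IFI16 held 1 and 3. Among the matched genes, the scarce ones in MDA-MB-231 had 2 to 12 CG dinucleotides, and the abundant ones had 27 to 34, apart from IFI16, which was abundant with few. The methylation of these windows was not measured in these files.

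**Figure D5:**
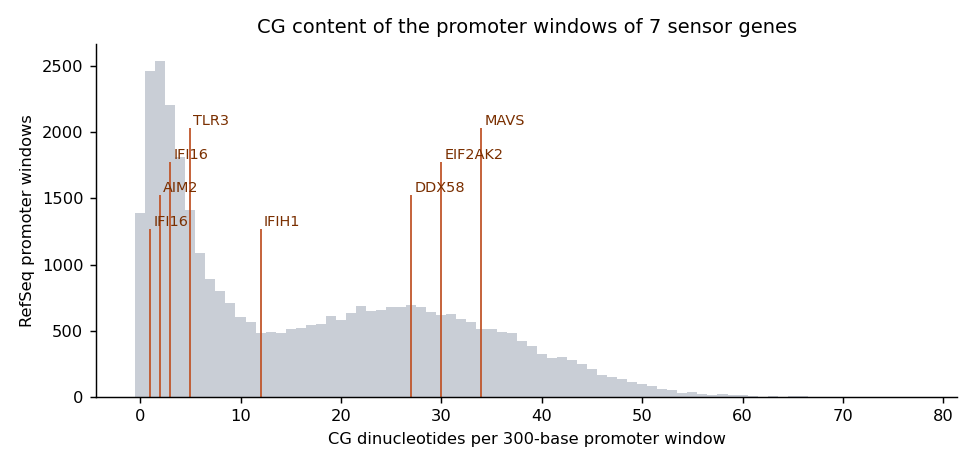
Number of CG dinucleotides in each 300-base RefSeq promoter window (grey bars, 35116 windows). Orange lines mark the 8 windows of 7 sensor genes. IFI16, AIM2 and TLR3 lie at 1 to 5, IFIH1 at 12, and DDX58, EIF2AK2 and MAVS at 27 to 34.

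The interferon-stimulated response element core GAAANNGAAA was in the windows of 4 of the 7 genes, AIM2, EIF2AK2, IFIH1 and TLR3, and in 3.57% of all windows. The related GGAANNGAAA, in the window of DDX58, was in 2.82%. Stretches of 30 bases around the other matches are shown to set them beside those of IFIH1, with the match in capitals, from RefSeq windows on chromosomes 1, 2 and 4.

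AIM2: tctaggccacTTTCTGTTTCcaatcagtgt

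EIF2AK2: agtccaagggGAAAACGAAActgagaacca

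TLR3: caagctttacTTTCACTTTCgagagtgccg

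The match in EIF2AK2 is at position -6 and that in TLR3 at -4, next to the annotated start, and that in AIM2 at -190. Genes with the core therefore included IFIH1, with a DAC/untreated ratio of 6.21 in MDA-MB-231, and EIF2AK2, with 0.689. A match is a description of the letters in the window and not a measured binding site.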

How the data were processed

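Polyadenylated RNA of HMLER and MDA-MB-231, untreated or given DAC, was sequenced. Alignment by the authors used TopHat2 and hg19, and Cuffdiff, run on a Galaxy server, gave FPKM for each RefSeq transcript; the authors deposited 1 table per line. Versions of these tools, and how Cuffdiff scaled the libraries, are not given in the sources used here. The kit does not mark strand, and no other symbol's locus in the table overlapped those of the 10 genes. The authors' fold changes, test statistics, p-values and q-values in the tables were not used. Of several transcripts with the same symbol, the one with the highest FPKM over both conditions stood for the gene. It was counted at 1 FPKM or more in at least 1 library, and called higher above a ratio of 2 and lower below 0.5. Log2 changes were computed after adding 1 FPKM, and so are too small for genes at low levels. With 1 value per condition, no test was run.

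What 1 read is worth was found as the step, and the number of bases taken off transcript lengths (204), that brought low values closest to whole reads. Reads were computed from it, with exact Poisson intervals, and with exact binomial (Clopper-Pearson) intervals for ratios. The calling step was tested on simulated data with counting error only. All 200 changes of 4-fold, planted in genes of 1 transcript above 5 FPKM, were called, as were 2 unchanged genes at 5 FPKM or more. Changes in genes at low levels or of several transcripts, and spread between libraries, were not covered. Genes were named if they were among the 10, or were pathway genes called in MDA-MB-231 or listed in HMLER, at most 6 per role. IFNB1, IFNL1, IFNL2, IFNL3, CXCL10, CCL5, PPP1R15A, SKIV2L, TBK1, SAMHD1, TREX1 and the genes of the last section were named in addition, after their values were seen. The 10 genes and the gene lists were chosen with earlier results of these data known. Positions are hg19 as in the tables, and promoter windows are GRCh38.p14; no coordinates were converted. The software was scipy 1.17.1, pandas 2.3.3 and numpy 2.4.6 under Python 3.11.15, with matplotlib 3.10.9 for plots.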

Additional observations from a re-analysis of the deposited data

Results flagged for a closer look

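For 4 genes the DAC/untreated ratio was above 1 in HMLER and below 1 in MDA-MB-231. The difference between the lines was not tested, as each has 1 value per condition. DDX58 had 4.10 in HMLER and 0.922 in MDA-MB-231, in the same transcript. DDX60L, a relative of the helicase DDX60, had 2.79 and 0.811, also in the same transcript. ZC3HAV1, the gene of the zinc-finger antiviral protein, had 2.87 and 0.806 in different transcripts, and 0.913 in MDA-MB-231 with transcripts summed. LRRFIP1 had 3.08 and 0.416 in different transcripts, and 0.498 summed. Over symbols that reached 1 FPKM in both MDA-MB-231 libraries, the median ratio was 0.908, itself below 1, and no such median was computed for HMLER. Divided by that median, the DDX58 ratio in MDA-MB-231 was 1.01, no longer below 1.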

How the results depend on the processing

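Without a filter on low values, 3 sensors (IFIH1, DHX58 and AIM2) in place of 1 were higher in MDA-MB-231. The number was 0 under each of these: a minimum of 1 FPKM in both libraries, a minimum of 5 FPKM in either library, and bounds that must not overlap. The number lower (0) was 1 without a filter (TLR3). Pathway genes higher (11) numbered 7 under the first of these, 6 under the second and 0 with bounds apart. Those lower (6) numbered 2 with transcripts summed and 0 with bounds apart. With bounds apart, 131 of all symbols were higher and 47 lower. The median log2 change of the sensors (-0.11, 7 genes) was 0.094 without a filter, -0.24 with either stricter filter and 0.020 after division by the median ratio, where that of all symbols was 0.037. The changes under stricter filters come from fewer genes passing. The sensors listed in HMLER (3) were 2 at 5 FPKM or more. The other alternatives left these counts within 1.5 times. No paired analysis was possible because HMLER has 1 merged value per condition and MDA-MB-231 1 library per condition, and for the same reason no library could be left out. Division by the median ratio could not be done for HMLER, whose table holds only transcripts that were higher. Depth limits TLR3 and AIM2, with 10 reads or fewer in both MDA-MB-231 libraries.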

Other observations

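The other endosomal receptors of the TLR family were low or listed at 0 in MDA-MB-231. TLR7 and TLR8, which bind single-stranded RNA, were listed at 0 in both libraries. TLR9, which binds DNA rich in unmethylated CG, had 9 reads untreated and 56 reads after DAC (0.0576 and 0.361 FPKM), and UNC93B1, the chaperone that brings these receptors to endosomes, was at 9.53 and 11.1 FPKM. Of the other HIN-200 genes, MNDA was listed at 0 in both libraries and PYHIN1 had 1 in each. CASP1, the protease that the AIM2 inflammasome activates, had 2 reads untreated and 1 after DAC, while its substrate genes differed. IL1B had 33 and 87 reads, and IL18, summed over its 2 transcripts, was at 9.63 and 6.39 FPKM, a ratio of 0.664, although its kept transcript alone gave 0.0756. OAS2 went from 1 to 24 reads summed over its transcripts. With 1 library per condition these values have no replicate check.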
